A study of Mus musculus with 8 samples.

Results

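Gpcpd1 and 6 other genes of the glycerophosphodiester pathway were followed in mouse quadriceps muscle. The members were taken by gene symbol: Gpcpd1, Gde1, Gdpd1, Gdpd3 and Gdpd5 encode glycerophosphodiesterases, and Pnpla6 and Pnpla7 encode lysophospholipases. All 7 symbols matched 1 row each among the 54532 genes in the count tables. RNA came from chow-fed mice of 3 months, 4 libraries per genotype. Control mice were Gpcpd1 Flox/Flox and Mck Cre negative, and knockout mice were Gpcpd1 Flox/Flox and MckCre positive, so both groups carried the floxed allele and Cre itself was present only where the gene was deleted, so an effect of either cannot be told apart. Mck is the muscle creatine kinase promoter, active in striated muscle fibres, so cells of other types in the same tissue keep an intact floxed allele. Libraries were made by 3′ mRNA sequencing (QuantSeq FWD), which takes reads from near the 3′ end of polyadenylated transcripts, and held between 4404116 and 5405999 reads. The labels do not say that each library came from a different mouse, so the p-values rest on the variation among the 8 libraries, which may in part be technical.

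Glycerophosphocholine is a water-soluble product of membrane breakdown. Phospholipases and lysophospholipases strip the fatty acids from phosphatidylcholine to form it, and glycerophosphodiesterases split it into glycerol phosphate and choline, which can both re-enter phospholipid synthesis. Glycerophosphocholine is also known as an organic osmolyte, above all in kidney.

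The 5 phosphodiesterases share a catalytic domain, shown here because the members were grouped by this activity and only 1 of them was targeted. Below is the coding sequence of each from GENCODE M21 (GRCm38), taken from the longest complete coding transcript and running from the conserved His-Arg-Gly codons to a downstream His-Asp. Capitals mark the His-Arg-Gly codons, an acidic motif of the family (Glu-x-Asp, where x is any residue) and the His-Asp codons.
Gpcpd1: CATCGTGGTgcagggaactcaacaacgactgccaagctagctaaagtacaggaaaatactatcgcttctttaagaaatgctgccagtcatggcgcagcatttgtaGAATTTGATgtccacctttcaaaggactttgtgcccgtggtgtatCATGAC
Gde1: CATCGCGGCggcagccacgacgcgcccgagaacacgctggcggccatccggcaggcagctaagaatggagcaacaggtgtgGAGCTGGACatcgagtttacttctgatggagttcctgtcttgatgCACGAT
Gdpd1: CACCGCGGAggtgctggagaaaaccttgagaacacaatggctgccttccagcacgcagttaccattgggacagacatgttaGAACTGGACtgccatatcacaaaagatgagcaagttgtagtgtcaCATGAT
Gdpd3: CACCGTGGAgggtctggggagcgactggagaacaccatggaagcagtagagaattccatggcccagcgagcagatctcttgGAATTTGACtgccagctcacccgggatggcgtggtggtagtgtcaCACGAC
Gdpd5: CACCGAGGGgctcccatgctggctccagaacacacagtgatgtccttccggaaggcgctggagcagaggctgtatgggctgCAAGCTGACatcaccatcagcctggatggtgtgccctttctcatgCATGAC
The stretch measured 156 bases in Gpcpd1 and 132 in each of the other four. It lies in exons 10 to 12 of 20 of Gpcpd1 (chr2:132542270-132546875, minus strand) and in exons 1 to 2 of 6 of Gde1 (chr7:118698653-118705443, minus strand). In Gdpd1 it lies in exons 1 to 3 of 10 (chr11:87059482-87073845, minus strand), in Gdpd3 in exons 1 to 3 of 10 (chr7:126766600-126767253, plus strand) and in Gdpd5 in exons 7 to 9 of 16 (chr7:99449070-99453023, plus strand). The middle capitals read as Glu-x-Asp in Gpcpd1, Gde1, Gdpd1 and Gdpd3, and as Gln-Ala-Asp in Gdpd5.

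Pnpla6 and Pnpla7 carry a patatin-like lipase domain instead. Their coding sequence is shown over 96 bases of that domain, with capitals for the glycine-rich codons that open it and for the Gly-x-Ser-x-Gly codons that hold the catalytic serine.
Pnpla6: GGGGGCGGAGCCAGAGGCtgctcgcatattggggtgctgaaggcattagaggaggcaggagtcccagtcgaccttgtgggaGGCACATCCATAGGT
Pnpla7: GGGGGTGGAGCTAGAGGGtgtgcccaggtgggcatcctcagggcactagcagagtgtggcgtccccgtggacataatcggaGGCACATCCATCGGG
The Pnpla6 stretch spans exons 26 to 27 of 35 (chr8:3536648-3536944, plus strand), and the Pnpla7 stretch exons 25 to 26 of 35 (chr2:25042194-25047689, plus strand). Reads of this method come from near the 3′ end of a transcript, so the counts below do not measure whether the domain is intact. Within the last 500 bases of the annotated coding transcripts, words of 50 bases were compared with all other genes of the annotation. No word was shared for Gpcpd1, Gdpd1, Gdpd5, Pnpla6 or Pnpla7. For Gde1 13.5% of words, and for Gdpd3 32.4%, also lay in a predicted gene annotated on the opposite strand (Gm45236 and Gm9967). Whether the counting used strand is not stated, so the counts of Gde1 and Gdpd3 are uncertain to that extent. Gm45236 itself held 17 reads in the controls and 17 in the knockouts, and Gm9967 held 6 and 7.

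Gpcpd1 was the only member called different between the genotypes among the 6 that could be tested. Its level in knockout muscle was 23.5% of control, while the other phosphodiesterases and both lysophospholipases had knockout means between 74.4% and 104.0% of control and overlapping libraries. No other member was called in either direction, and the interval of each is given below. Of all 10691 tested genes 15.7% were called at an adjusted p under 0.05 (948 higher and 727 lower, or 829 and 901 with library totals in place of TMM scaling), and 19.2% had libraries that did not overlap between genotypes. Against that background 1 of 6 is not an unusual count, and it is the targeted gene that makes it up.

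**Figure D1:**
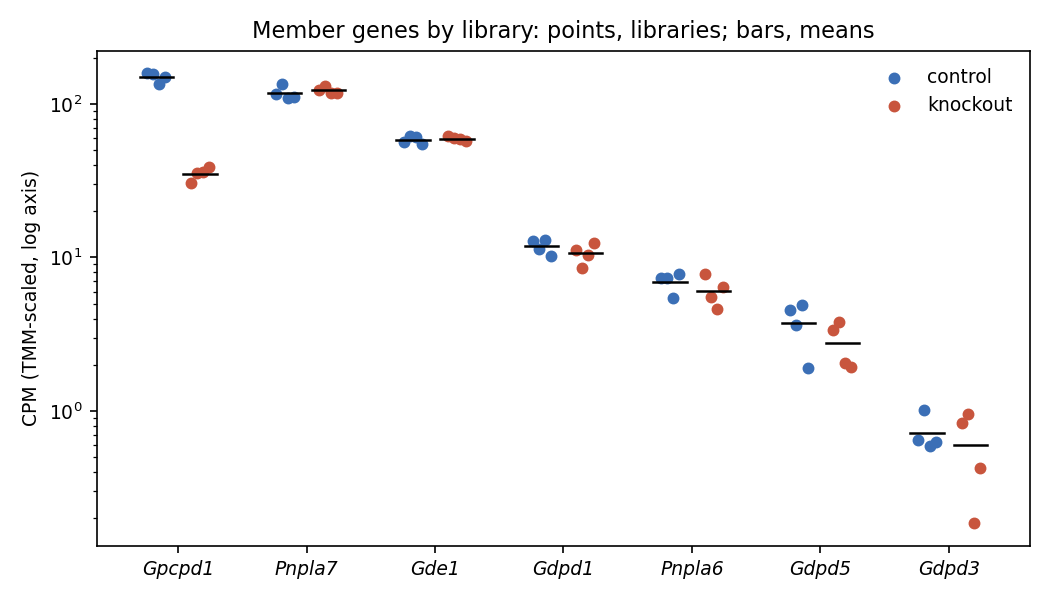
Level of each member (CPM after TMM scaling, log axis) in the 4 control (blue) and 4 knockout (red) libraries, with black bars at the group means. Gpcpd1 separates the genotypes, at 134.7 to 158.5 CPM against 30.4 to 38.6 CPM, and the points of the other 6 genes overlap.

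Gpcpd1 (ENSMUSG00000027346, GRCm38 chr2:132529082-132587729, minus strand) splits glycerophosphocholine in the cytosol. Levels are given in CPM, counts per 1e6 reads after TMM scaling of the libraries. Its level was 158.5, 156.3, 134.7 and 149.4 CPM in controls 1 to 4 and 30.4, 35.7, 35.9 and 38.6 CPM in knockouts 1 to 4. Every knockout library lay below every control, and the highest knockout stood far under the lowest control. The fall was -2.09 on the log2 scale (SE 0.10, 95% interval -2.29 to -1.89; edgeR adjusted p = 2.1e-13). This interval puts the remaining 3′ signal between 20.5% and 27.0% of control. Among all tested genes 2 had a lower fold change than Gpcpd1.

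The remaining Gpcpd1 reads were not at the limit of detection: the knockouts held 145 to 193 reads each, against a floor of 3 reads that corresponds to between 0.557 and 0.646 CPM. This floor covers counting error only, whereas the interval of the fold change also takes in the variation among libraries. Which exons were floxed is not stated in the labels, so intact and recombined transcripts that share a 3′ end cannot be told apart in these reads. In bulk tissue, fewer cells of a type and less RNA per cell cannot be told apart either. Markers of cell types in which Mck-Cre is not active were present in every library. The 7 endothelial markers summed to between 281.1 and 319.1 CPM in controls and between 276.7 and 298.9 CPM in knockouts, with 0 of 7 called. The 7 fibroblast markers summed to between 504.6 and 615.2 CPM in controls and between 417.9 and 505.9 CPM in knockouts. Of these 1 was called lower, the proteoglycan gene Dcn (log2 fold change -0.27, SE 0.09). The log2 fold change was below 0 in 6 of the 7 and above 0 in 1, with a median of -0.21. Over all tested genes 8.87% were called higher and 6.80% lower, the share to set beside both lists. Dcn made up most of the sum, with means of 370.3 CPM in controls and 307.0 CPM in knockouts. The part of endothelial cells and fibroblasts in the remaining Gpcpd1 signal was not tested. Ckm, whose promoter drives Cre, had 13435 ± 403 CPM in controls and 15680 ± 1511 CPM in knockouts (SD, n = 4 each) and did not pass the threshold (log2 fold change 0.22, SE 0.09, edgeR adjusted p = 0.0893), although without knockout 1 it did (0.28, adjusted p = 0.0200). The 12 muscle fibre markers summed to between 149846 and 171230 CPM in controls and between 165556 and 172596 CPM in knockouts. Of the 11 tested, 3 were called higher (Acta1, Mb and Mylpf) and 1 lower (Myh4), against 8.87% and 6.80% of all tested genes. Acta1 passed narrowly (edgeR adjusted p = 0.0495). The log2 fold change was above 0 in 8 of the 11 and below 0 in 3. The myosin genes Myh2 (1.46, SE 0.41, edgeR adjusted p = 0.0644) and Myh1 (0.67, SE 0.24, 0.112) were not called. The Myh2 libraries did not overlap between genotypes. The slow myosin gene Myh7, with 47 reads in all, was at 0 in control 1.

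The other phosphodiesterase with a substantial level was Gde1 (ENSMUSG00000033917, chr7:118688545-118705778, minus strand), a membrane enzyme known for cleaving glycerophosphoinositol and glycerophospho-N-acylethanolamines. Gde1 stood at 56.4, 62.2, 60.5 and 54.9 CPM in controls 1 to 4 and at 62.0, 59.96, 58.7 and 57.0 CPM in knockouts 1 to 4. The groups overlapped throughout. Its log2 fold change was 0.02 (SE 0.09, 95% interval -0.16 to 0.21, edgeR adjusted p = 0.911), so that a rise above 1.15-fold or a fall below 0.893-fold lay outside the interval. The sign of this value is not determined, since it turned to -0.014 with library totals in place of TMM.

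Gdpd1 (ENSMUSG00000061666, chr11:87033867-87074062, minus strand) is known as a lysophospholipase D, which releases the head group of lysophospholipids. Its level was 12.7, 11.4, 12.9 and 10.3 CPM in controls 1 to 4 and 11.1, 8.59, 10.4 and 12.4 CPM in knockouts 1 to 4, again with overlap. The log2 fold change was -0.16 (SE 0.16, 95% interval -0.49 to 0.18, edgeR adjusted p = 0.568).

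Gdpd5 (ENSMUSG00000035314, chr7:99381414-99461877, plus strand) is a membrane protein known for hydrolysing glycerophosphocholine in kidney and for releasing proteins held by glycosylphosphatidylinositol anchors. It stood at 4.52, 3.65, 4.89 and 1.89 CPM in controls 1 to 4 and at 3.35, 3.82, 2.04 and 1.92 CPM in knockouts 1 to 4. Control 4 was as low as the lowest knockouts. With 9 to 25 reads per library, its log2 fold change of -0.42 (SE 0.31, edgeR adjusted p = 0.412) had a 95% interval from -1.07 to 0.23, so that a fall to 47.5% of control could not be told from no change at this depth.

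Gdpd3 (ENSMUSG00000030703, chr7:126766334-126775649, plus strand), another lysophospholipase D of the family, was near the floor. It had 3, 5, 3 and 3 reads in controls 1 to 4 and 4, 5, 1 and 2 in knockouts 1 to 4. Its 26 reads in total exceeded the minimum of 10 set for detection but missed the filter on low counts, and it was not tested for a difference between genotypes in that fit. Of the 2 remaining genes of the family, Gdpd2 had 1 read in all 8 libraries together and Gdpd4 had 0.

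On the side that forms glycerophosphocholine, Pnpla7 (ENSMUSG00000036833, chr2:24976033-25054057, plus strand) was the main member. It encodes a lysophospholipase of the endoplasmic reticulum and lipid droplets. Pnpla7 stood at 115.9, 135.2, 109.4 and 110.3 CPM in controls 1 to 4 and at 123.4, 130.8, 117.1 and 118.6 CPM in knockouts 1 to 4. The knockout values lay inside the range of the controls. Its log2 fold change was 0.06 (SE 0.09, 95% interval -0.12 to 0.24, edgeR adjusted p = 0.726), which bounds a change between 0.917-fold and 1.18-fold.

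Pnpla6 (ENSMUSG00000004565, chr8:3515384-3544267, plus strand) encodes neuropathy target esterase, the closest relative of Pnpla7, with the same activity. It stood at 7.32, 7.30, 5.48 and 7.78 CPM in controls 1 to 4 and at 7.75, 5.54, 4.64 and 6.40 CPM in knockouts 1 to 4. The lowest value was a knockout and the highest a control, with the others mixed. The log2 fold change was -0.20 (SE 0.21, 95% interval -0.64 to 0.23, edgeR adjusted p = 0.582).

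**Figure D2:**
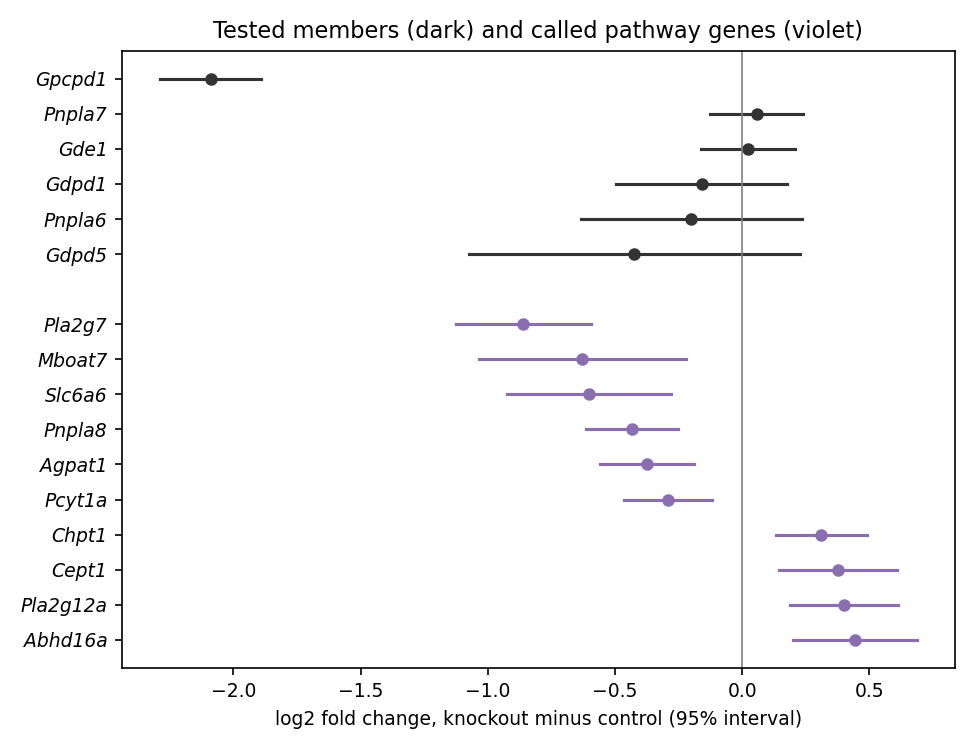
Log2 fold change, knockout minus control, with its 95% interval from edgeR, for the 6 tested members (dark) and for the 10 called genes of the pathway lists (violet). Gpcpd1 at -2.09 stands apart, the intervals of the other 5 members cross 0, and they widen from Gde1 and Pnpla7 to Gdpd5.

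Because reads of this method are counted per 3′ end and not per length, levels of different genes can be ranked, although capture and mapping of each 3′ end still differ. In control muscle the order of mean CPM was Gpcpd1, Pnpla7, Gde1, Gdpd1, Pnpla6, Gdpd5 and Gdpd3. Gpcpd1 was highest in 4 of 4 controls, but its lowest control (134.7 CPM) was no higher than the highest control value of Pnpla7 (135.2 CPM), so these 2 neighbours overlapped across libraries. Each later pair of neighbours was separate: the lowest value of the upper gene exceeded the highest of the lower one, with the narrowest gap between Pnpla6 (5.48 CPM) and Gdpd5 (4.89 CPM). In knockout muscle Pnpla7 came first, then Gde1 and then Gpcpd1 in 4 of 4 libraries, and the places of Gdpd1, Pnpla6, Gdpd5 and Gdpd3 were as in controls. Gpcpd1 remained 3.31-fold above Gdpd1 in the knockouts.

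Most reads of the 5 phosphodiesterase genes in control muscle came from Gpcpd1, although capture and mapping of each 3′ end differ between genes. Of the reads of the 5 phosphodiesterase genes, Gpcpd1 held 68.1%, 66.6%, 63.1% and 68.8% in controls 1 to 4 and 28.2%, 32.7%, 33.4% and 35.0% in knockouts 1 to 4. The summed level of the 5 genes was 224.5 ± 10.7 CPM in controls and 108.6 ± 1.40 CPM in knockouts (SD, n = 4 each). Without Gpcpd1 the sum was 74.8 ± 5.15 CPM in controls and 73.4 ± 2.73 CPM in knockouts, and the libraries overlapped. For each read of Pnpla7 there were 1.16 to 1.37 reads of Gpcpd1 in the controls and 0.246 to 0.326 in the knockouts.

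**Figure D3:**
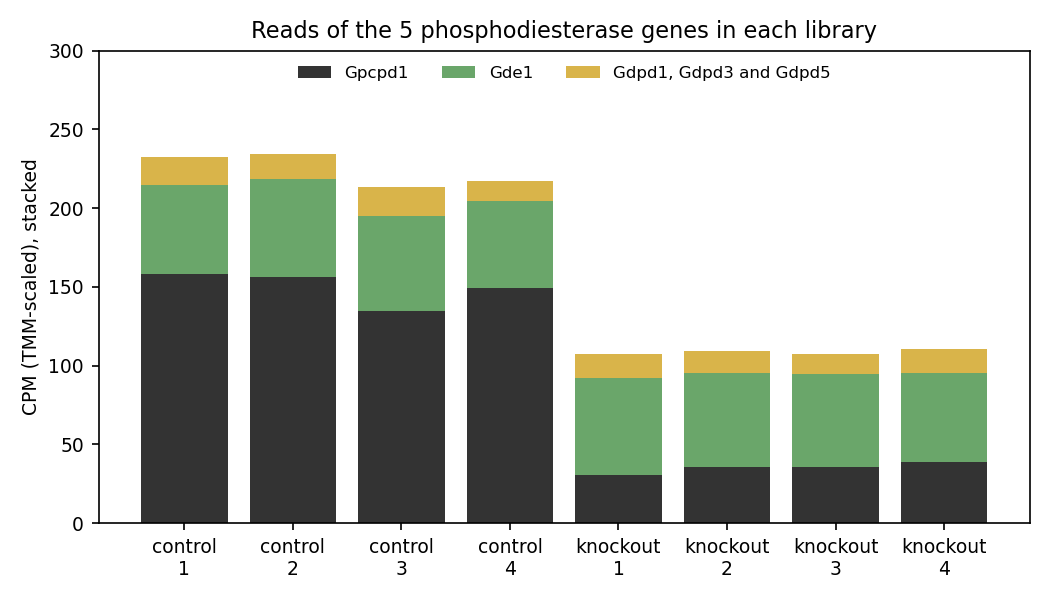
Stacked level (CPM, TMM-scaled) of the 5 phosphodiesterase genes in each library. The total falls from 213.6 to 234.5 CPM in controls to 107.2 to 110.3 CPM in knockouts, and the part without Gpcpd1 lies between 67.7 and 78.9 CPM in all 8.

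Gpcpd1 was also set against each other tested member within a library, as the log2 ratio of their reads. The knockout mean minus the control mean of this ratio was -2.11 for Gde1, -2.15 for Pnpla7, -1.93 for Gdpd1, -1.88 for Pnpla6 and -1.70 for Gdpd5. All 5 ratios share the Gpcpd1 reads, so they are a description and no p-value is quoted for them.

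The genes that lie around these members in the pathway were taken from 7 lists holding 82 genes, of which 51 could be tested. In all, 4 rose and 6 fell, against 8.87% of all tested genes higher and 6.80% lower, and their median log2 fold change was 0.05 against 0.01 for all genes. The number that rose was 2 without control 3 and 1 without knockout 3. Without knockout 3, Chpt1 (adjusted p = 0.0503), Cept1 (0.123) and Abhd16a (0.0522) were no longer called.

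Among other phosphodiesterases and enzymes of N-acylethanolamine turnover, 0 of 4 tested genes were called and the median log2 fold change was 0.07. Enpp6, a choline-specific phosphodiesterase that also splits glycerophosphocholine, had 10 reads in the controls and 8 in the knockouts and was not tested. Napepld, a phospholipase D that releases N-acylethanolamines from their phospholipid precursor without passing through Gde1, had the lowest p of this list with 0.49 (SE 0.22, edgeR adjusted p = 0.142).

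In the list of lipases upstream of glycerophosphocholine, 2 of 14 tested genes rose and 2 fell, with a median of 0.08. The secreted phospholipase gene Pla2g12a had a log2 fold change of 0.40 (SE 0.10), and Abhd16a, known as a phosphatidylserine lipase, one of 0.44 (SE 0.12). The Abhd16a call was also lost without knockout 2 (edgeR adjusted p = 0.0545). Pla2g7, which hydrolyses platelet-activating factor, fell by 0.86 on the log2 scale (SE 0.13, edgeR adjusted p = 3.8e-05), with 49.4 ± 5.78 CPM in controls and 27.1 ± 5.44 CPM in knockouts (SD, n = 4 each). Of 8 tested markers of macrophages, cells known to secrete this enzyme, 3 were called lower and 0 higher. Of all tested genes 6.80% were called lower and 8.87% higher. None of the 9 listed markers was at 0. Their sum was between 93.5 and 154.9 CPM in controls and between 66.6 and 110.2 CPM in knockouts, so the sums overlapped. All 8 tested markers had a log2 fold change below 0, with a median of -0.49 against 0.01 for all tested genes. The part of macrophages in the Pla2g7 value was not tested. Pnpla8, a calcium-independent phospholipase of mitochondria and peroxisomes and a relative of the 2 Pnpla members, fell by 0.43 on the log2 scale (SE 0.09, edgeR adjusted p = 0.0011), with 103.6 ± 8.24 CPM in controls and 76.8 ± 3.62 CPM in knockouts. Pnpla8 was at 96.7 CPM or above in each control and at 82.1 CPM or below in each knockout. These 4 enzymes mostly form lysophospholipids or act on other lipids, and the lysophospholipases Lypla1 (-0.17, SE 0.10) and Lypla2 (0.02, SE 0.09) were not called. Of the 5 other patatin-like genes only Pnpla8 and the triglyceride lipase gene Pnpla2 were tested, and Pnpla2 had a log2 fold change of 0.05 (SE 0.09).

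Choline use had 2 of 9 tested genes higher and 1 lower, with a median of 0.27. Chpt1 (log2 fold change 0.31, SE 0.09) and Cept1 (0.38, SE 0.11), which join activated choline to diacylglycerol, rose. Pcyt1a, which makes the activated choline, fell by 0.29 on the log2 scale (SE 0.08), with 197.1 ± 11.0 CPM in controls and 161.1 ± 11.7 CPM in knockouts (SD, n = 4 each). Chpt1 was also lost without control 3 (edgeR adjusted p = 0.0767), Pcyt1a without knockout 3 (0.0553), and Cept1 without control 2 (0.0621), control 3 (0.0876) or knockout 2 (0.0535). The choline transporter genes Slc44a1 (-0.08, SE 0.11) and Slc44a2 (0.27, SE 0.10) and the choline kinase genes Chka (0.65, SE 0.27) and Chkb (0.27, SE 0.18) did not pass the threshold.

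Glycerol phosphate use had 0 of 14 tested genes higher and 1 lower, with a median of 0.00. Agpat1, an acyltransferase of phosphatidic acid synthesis, fell by 0.37 on the log2 scale (SE 0.09), with 145.0 ± 14.6 CPM in controls and 111.8 ± 6.23 CPM in knockouts. The glycerol phosphate dehydrogenase genes Gpd1 (0.02, SE 0.09) and Gpd2 (-0.09, SE 0.09) were not called. Of 5 tested genes for reacylation of lysophospholipids 1 was lower, the lysophosphatidylinositol acyltransferase gene Mboat7 (-0.63, SE 0.20), and the list's median was -0.12. That call was lost without control 2 (edgeR adjusted p = 0.0568), control 3 (0.0953), knockout 2 (0.0932), knockout 3 (0.0823) or knockout 4 (0.0735). Of 4 tested genes for other osmolytes 1 was lower, with a median of 0.05: the taurine transporter gene Slc6a6 (-0.60, SE 0.15), whose groups overlapped and whose call was lost without control 4 (edgeR adjusted p = 0.0534) or knockout 1 (0.0536). Nfat5, the transcription factor of the osmotic response, had a value of 0.10 (SE 0.16).

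The genes beside Gpcpd1, around the floxed locus that Cre recombines, were read out as well. Within 500 kb of either end lay 29 other genes of the tables, of which 14 had 0 reads and 7 were tested. Of these 0 were higher and 1 was lower, where 8.87% of all tested genes were called higher and 6.80% lower. Among 7 genes, 1 call cannot be set apart from that share. Cds2, a CDP-diacylglycerol synthase gene (chr2:132263148-132312050), fell by 0.53 on the log2 scale (SE 0.16, edgeR adjusted p = 0.0273). It stood at 20.03, 15.8, 12.3 and 16.8 CPM in controls 1 to 4 and at 10.1, 12.8, 11.9 and 10.0 CPM in knockouts 1 to 4, so the groups overlapped at control 3. Cds2 no longer passed the threshold when control 1 (edgeR adjusted p = 0.113), control 4 (0.0530), knockout 1 (0.0594) or knockout 4 (0.0786) was left out. Shld1, the nearest tested gene at 99.2 kb, had a value of -0.01 (SE 0.25), with a 95% interval from -0.53 to 0.52. Mcm8, a DNA helicase gene 228.4 kb away that missed the filter on low counts and was chosen after its values were seen, had 3, 2, 4 and 4 reads in controls 1 to 4 and 9, 8, 16 and 12 in knockouts 1 to 4. Without the filter it was called higher (1.69, SE 0.48, edgeR adjusted p = 0.0082).

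**Figure D4:**
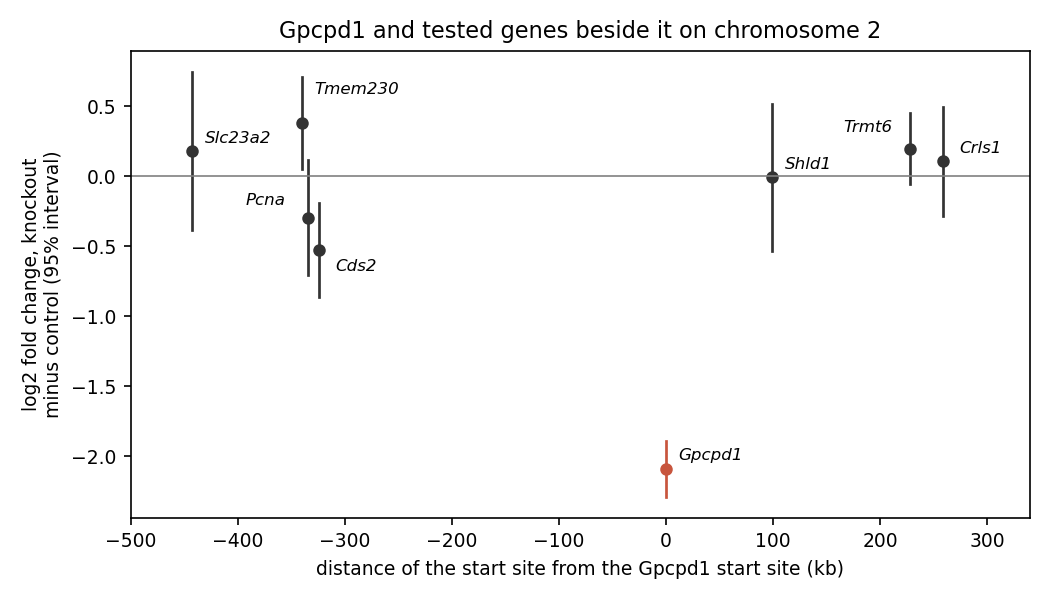
Log2 fold change, knockout minus control, with its 95% interval from edgeR, against the distance in kb between the start site of each tested gene and that of Gpcpd1 (red). The 7 neighbours (black) lie between -0.53 and 0.38, and Gpcpd1 at -2.09.

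Finally, the genes whose pattern over the 8 libraries lay nearest to that of Gpcpd1 were found by the root mean square difference in log2 CPM, each gene centred on its control mean. Among named protein-coding genes, with predicted genes left out, the nearest was the histone gene Hist1h4i, at a difference of 0.16. The median over all 10690 other tested genes was 1.497. Because each gene is centred on its control mean, this contrast mostly reflects the size of the fall. Hist1h4i stood at 120.4, 105.6, 97.7 and 90.2 CPM in controls 1 to 4 and at 25.6, 21.01, 25.3 and 25.2 CPM in knockouts 1 to 4. Histone genes have near-identical copies, so its count is uncertain. Next came Mss51, a muscle mitochondrial gene (0.31), the potassium channel gene Kcng4 (0.42), Aebp1 (0.46) and the kinase gene Pim1 (0.47). The genes were chosen for this likeness in the same libraries, so their levels are a description. Pim1, the farthest of the 5, stood at 23.8 ± 0.445 CPM in controls and 8.38 ± 2.28 CPM in knockouts.

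**Figure D5:**
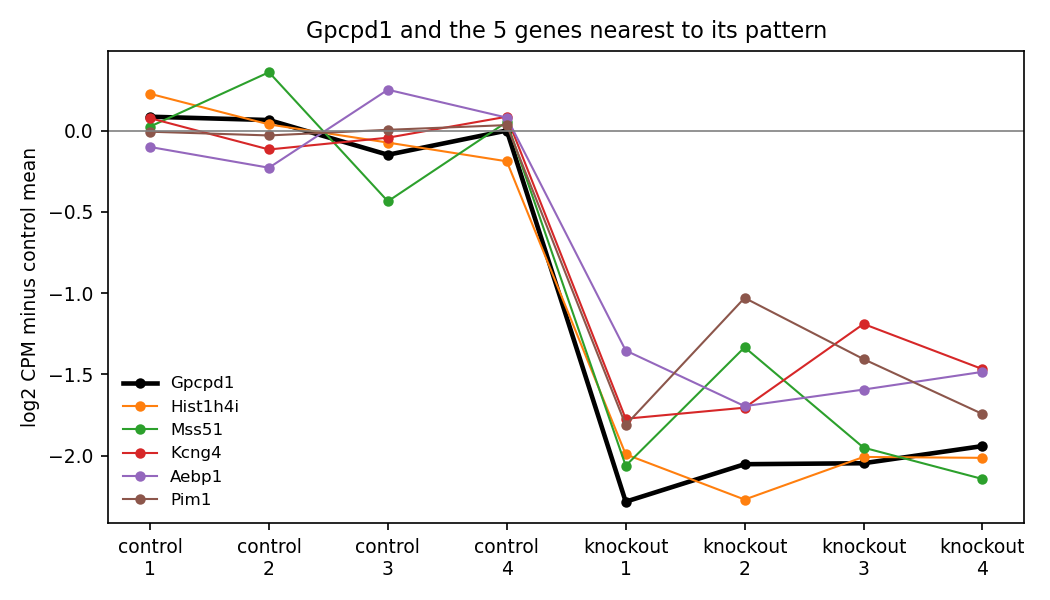
Log2 CPM minus the control mean in each library for Gpcpd1 (thick black line) and the 5 named genes nearest to it. The lines join libraries of no set order, and all 6 genes lie below their controls in each knockout.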

How the data were processed

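Raw read counts per Ensembl gene were deposited by the authors, 1 table per library with no normalization, per the file headers. Alignment and counting tools in the submitters' processing notes are Subread 1.6.2, featureCounts and Bowtie2 2.3.4.1, and the builds GRCm38 and mm10, with no annotation release. Of 54532 genes 54495 were matched to GENCODE M21. Counts were fitted over all genes with edgeR 4.0.16 in R 4.3.3: filterByExpr (minimum count 10, minimum total 15) left 10691 genes, TMM scaled the libraries, and genotype was tested with the robust quasi-likelihood F test and Benjamini-Hochberg adjustment at 0.05. SE is the log2 fold change over the square root of F, and CPM uses TMM-scaled totals. Log2 ratios within a library added 0.5 reads to each count. No pair of libraries agreed within sampling noise (chi-square per degree of freedom at least 2.33). The fit was checked on simulated counts. Coding sequences were read with Biopython 1.88.

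The members, lists and tests were chosen with earlier results of these data known. Text names all members, every called gene of the lists, the gene of lowest p in a list with none called, every called gene within 500 kb of Gpcpd1, the 5 nearest patterns and Ckm, with other list members as values. Replicates were numbered in accession order, and the numbers pair no samples. Alternatives were DESeq2 1.42.0, limma 3.58.1 voom, edgeR without robust estimation, other scalings and filters, the library number as a covariate, and leaving out each library. Controls held library numbers 9, 10, 15 and 16, and knockouts 11 to 14. Both groups lie evenly about the same middle, so the linear covariate could hardly move a fold change.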

Additional observations from a re-analysis of the deposited data

Results flagged for a closer look

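Among 24 genes (the members, the called genes of the lists and of the locus, the nearest patterns and Ckm), 48 groups of 4 libraries were examined for a single library far from the rest, and 4 held one, where chance gives about 1 in 20. Gdpd3 in control 2 stood at 1.01 CPM (5 reads) against 0.646 CPM in the nearest control, a distance of 2 reads. Agpat1 in control 4 stood at 123.2 CPM, below the other controls at 151.8 CPM or more, and the gene was still called without that library. Mboat7 in knockout 1 stood at 7.54 CPM, above the other knockouts at 5.33 CPM or less. Hist1h4i in knockout 2 stood at 21.01 CPM, below the other knockouts at 25.2 CPM or more.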

How the results depend on the processing

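Over 17 alternatives the log2 fold change of Gpcpd1 lay between -2.15 and -2.03 and it was called in each, and 1 member was called lower and 0 higher in each. Of the other members, Gde1 changed sign with library totals alone (-0.014), without control 4 (-0.012) and without knockout 1 (-0.0055), and its values lay between -0.012 and 0.0405 when a library was left out. No other member changed sign: Pnpla7 lay between 0.01 and 0.12, Gdpd1 between -0.25 and -0.07, Pnpla6 between -0.34 and -0.09, and Gdpd5 between -0.64 and -0.28 in the 16 alternatives that tested it, since a minimum of 5 CPM in 4 libraries removed it. The number of other pathway genes called higher was between 1 and 6 when a library was left out. Of genes beside Gpcpd1, between 0 and 1 were called lower and between 0 and 1 higher when a library was left out, and 1 was called higher with no low-count filter; the filter itself sets which genes are tested. With DESeq2 the calls of Cept1 (adjusted p = 0.0567) and Mboat7 (0.0686) were lost, and that of Cept1 also with library totals (0.0591); the cause was not tested. Without a filter, Gdpd3 had a log2 fold change of -0.27 with a 95% interval from -1.57 to 1.03. No paired analysis was possible because the library numbers in the labels are all different and none is shared between the genotypes.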
